A study of Mus musculus with 8 samples.

Results

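The 10 genes described here are known as targets of ERK signalling that either restrain the pathway or carry its signal onward. Their RNA was measured in AML12 cells, a mouse hepatocyte line. The genes were taken by symbol from tables of 55401 genes, with earlier results of these data known. They comprise the phosphatase genes Dusp4, Dusp5 and Dusp6, the Sprouty genes Spry1, Spry2 and Spry4, the Spred genes Spred1 and Spred2, and the ETS factor genes Etv4 and Etv5. All 10 were found, and 9 of them were abundant enough to test. RNA was sequenced from 4 control samples and 4 samples of cells kept for 1 h under Opti-ELF-WMF. This field is a train of magnetic pulses of 4 ms at a peak of 100 mG whose frequency climbs from 1 to 8 Hz. Each sample is called a dish here. In the paper's general method, control and exposed cells were prepared together from 1 batch. Whether the samples of a group came from separate cultures, or even from separate dishes, is not given. The medium held serum, insulin, transferrin, selenite and dexamethasone. Control dishes stood over a coil that was switched off in another incubator of the same model. The field and the incubator therefore cannot be told apart, and p-values measure only the spread between these samples. AML12 cells derive from a mouse that carried a transgene for human TGFA, a ligand of the EGF receptor, which both groups share.

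ERK is the last kinase of a relay that starts at growth factor receptors and runs through adaptors, Ras, Raf and MEK. Active ERK enters the nucleus and switches on genes within minutes, and many of their products act back on the relay. The dual-specificity phosphatases remove phosphate from ERK itself, DUSP4 and DUSP5 in the nucleus and DUSP6 in the cytoplasm. Sprouty and Spred proteins act upstream of ERK, at the level of Ras and Raf, and Spred proteins bring the Ras inhibitor neurofibromin to the membrane. ETV4 and ETV5 are transcription factors of the PEA3 group that carry the signal to further genes. The messenger RNAs of several of these genes are short-lived, and their levels are widely used as a readout of ERK activity. ERK activity itself was not measured here, and whether these genes depend on it in AML12 cells was not tested.

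The deposited values are TPM, in which read numbers are corrected for transcript length and every dish is scaled to 1 common total. Sequencing depth is therefore unknown, and no counting error can be given. Of 11 hepatocyte markers, 9 had a mean of at least 1 TPM, among them Alb, Ttr, Trf and Hnf4a, while Apoa2 and Ahsg were near 0. Of 8 fibroblast and stellate markers and 5 endothelial markers, 0 reached 1 TPM, and of 5 leukocyte and macrophage markers 1 did (Cd68). Of 4 bile duct markers, 3 did (Krt7, Krt19 and Sox9), with Epcam near 0. Krt19 had a mean of 1150 TPM in control dishes, above all listed hepatocyte markers but the keratins Krt8 (2250) and Krt18 (1910). Alb was at 55.1, Krt7 at 70.4 and Sox9 at 30.8 TPM in the same dishes. The genes of the mitochondrial genome held 8.69% to 9.42% of TPM in control dishes and 5.99% to 7.69% in exposed dishes. The median difference of all 12122 tested genes was 0.03 on the log2 scale, and -0.002 once mitochondrial genes were taken out of the total. In bulk RNA, fewer cells that express a gene and less of its RNA per cell cannot be told apart.

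None of the 9 tested members had an adjusted p-value under 0.05, and neither did any of the 12122 genes (0.0%). Under the alternative settings 0 to 2 genes did, and none of them was a member. Adjusted p-values of the members ran from 0.122 to 0.992 (limma on log2(TPM + 1), Benjamini-Hochberg over all tested genes). Of the 9 members, 8 had a positive difference between exposed and control dishes, against 7720 of all 12122 genes. The median difference of the members was 0.12 on the log2 scale, against 0.03 for all tested genes. By unadjusted p under 0.05, 4 of 9 members were higher (Dusp5, Dusp6, Spry2 and, in fewer of the settings, Etv4), where 12.0% of all tested genes were, and 0 were lower, where 3.65% were. For Dusp5, Dusp6 and Spry2 every exposed dish lay above every control dish, which was so for 8.01% of all tested genes, and no member showed the opposite order, which 1.86% did. The members, and the pathway lists below, had been chosen with earlier results of these data in view. Their shares therefore describe the lists beside all genes and are not a test of them.

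**Figure D1:**
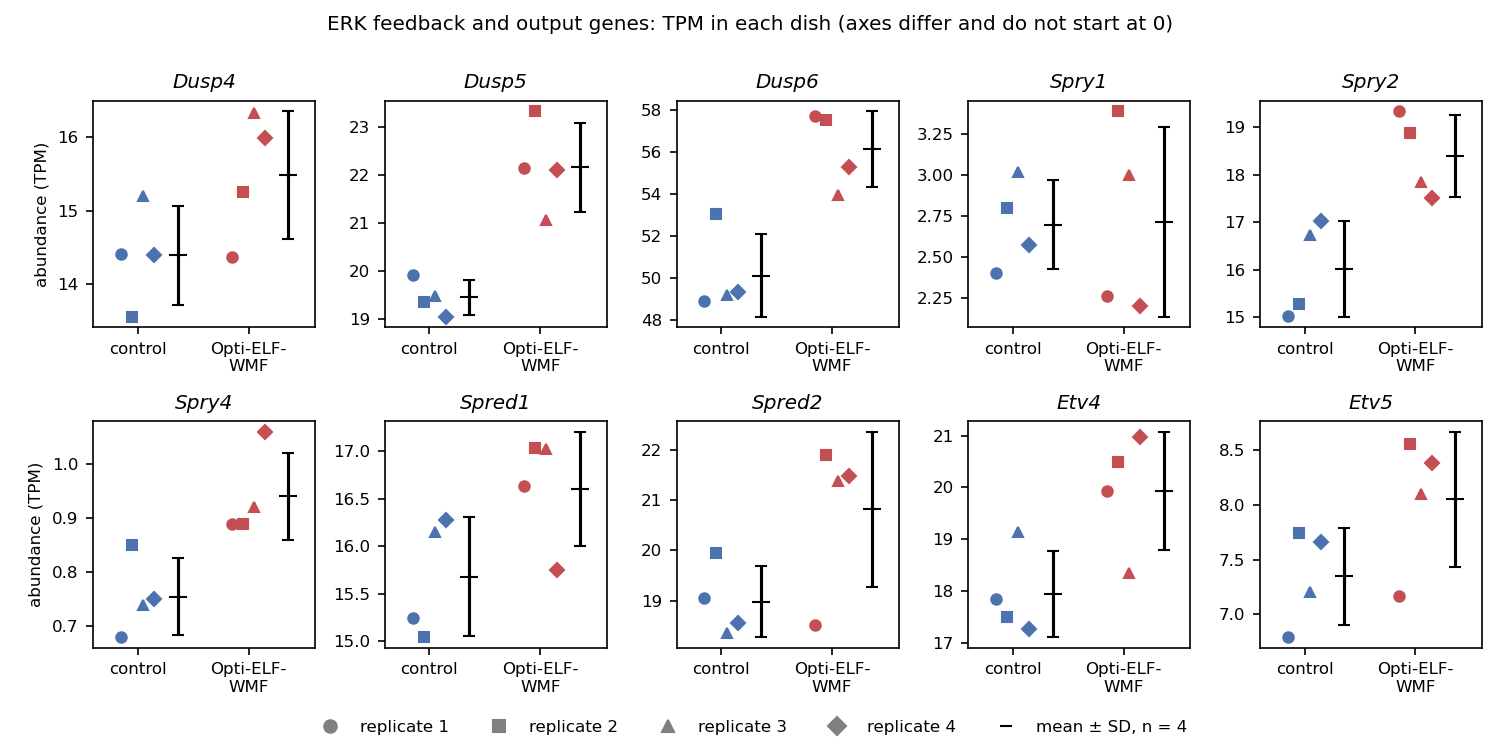
TPM of the 10 genes (vertical axes, each with its own scale that does not start at 0) in 4 control and 4 Opti-ELF-WMF dishes, with symbols for the replicate number and the mean ± SD of each group. The groups are separate for Dusp5, Dusp6, Spry2 and Spry4 and overlap for the other 6 genes.

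The phosphatase genes were led by Dusp6, whose product takes phosphate from ERK in the cytoplasm. Its TPM was 48.91, 53.06, 49.17 and 49.32 in control dishes and 57.71, 57.56, 53.97 and 55.31 in exposed dishes. The lowest exposed dish stood just above control replicate 2, which was itself higher than the other 3 control dishes. The means were 50.11 ± 1.97 and 56.14 ± 1.81 TPM (SD, n = 4 each), a difference of 0.16 on the log2 scale (standard error 0.04, 95% confidence interval 0.08 to 0.24, limma adjusted p = 0.122). Dusp6 lies on chromosome 10 from 99263231 to 99267489 on the forward strand (GRCm38).

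Dusp5, whose product holds and dephosphorylates ERK in the nucleus, had 19.93, 19.37, 19.48 and 19.05 TPM in control dishes and 22.15, 23.32, 21.06 and 22.11 TPM in exposed dishes. The control dishes lay within 1 TPM of each other, and the 4 exposed dishes were all above them. The mean was 13.9% higher after exposure, and the log2 difference was 0.18 (standard error 0.04, 95% confidence interval 0.09 to 0.27, limma adjusted p = 0.122). The gene lies on chromosome 19 from 53529109 to 53542431 on the forward strand and overlaps an antisense RNA, AC137853.2, which stayed at or below 0.36 TPM in every dish. The kit marks strand, but whether the counting used it is not given in the sources used here.

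Dusp4 encodes a nuclear phosphatase that also acts on other MAP kinases. It had 14.41, 13.55, 15.20 and 14.40 TPM in control dishes and 14.37, 15.25, 16.33 and 15.99 TPM in exposed dishes. Here 3 exposed dishes lay above every control dish and replicate 1 lay among the controls. The log2 difference was 0.10, with a 95% confidence interval from -0.02 to 0.22 (limma adjusted p = 0.408). The interval holds both no difference and one as large as that of Dusp6. The gene lies on chromosome 8 from 34807297 to 34819894 on the forward strand.

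The promoters of Dusp5 and Dusp6 are shown because these genes had the smallest p-values among the members. Both stretches end at the base before the first annotated start of the gene, run 5′ to 3′ on the gene's strand, and come from RefSeq on GRCm38.p6 (chr19:53528895-53529108 and chr10:99262981-99263230, both forward). Capitals mark 2 adjoining CArG boxes, the sequence read by serum response factor, in Dusp5, and in Dusp6 the reverse complement of CGGAAG, a core read by ETS factors.
Dusp5: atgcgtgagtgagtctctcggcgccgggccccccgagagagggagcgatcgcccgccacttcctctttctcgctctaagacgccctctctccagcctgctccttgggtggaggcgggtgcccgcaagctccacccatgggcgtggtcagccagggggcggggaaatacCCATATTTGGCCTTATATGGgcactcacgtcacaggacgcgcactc
Dusp6: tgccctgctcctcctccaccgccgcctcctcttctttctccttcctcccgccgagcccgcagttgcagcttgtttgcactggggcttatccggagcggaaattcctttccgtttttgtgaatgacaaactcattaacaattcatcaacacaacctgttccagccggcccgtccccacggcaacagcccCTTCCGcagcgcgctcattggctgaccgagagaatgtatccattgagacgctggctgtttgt

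The CArG boxes of Dusp5 span the bases from -82 to -63 relative to its RefSeq start, and the ETS core of Dusp6 those from -62 to -57. A match of letters is a description and not evidence of binding.

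Among the Sprouty genes, Spry2 had the largest log2 difference of the tested members. Sprouty proteins are phosphorylated after growth factor stimulation and hold back the step from receptor to Raf. Spry2 had 15.03, 15.27, 16.73 and 17.02 TPM in control dishes and 19.33, 18.87, 17.84 and 17.50 TPM in exposed dishes. All exposed dishes lay above all control dishes, by a margin of less than 1 TPM between the closest. The means were 16.01 ± 1.01 and 18.39 ± 0.858 TPM (SD, n = 4 each), and the log2 difference was 0.19 (standard error 0.05, 95% confidence interval 0.07 to 0.31, limma adjusted p = 0.157).

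Spry4 showed the same order at a much lower level. It had 0.68, 0.85, 0.74 and 0.75 TPM in control dishes and 0.89, 0.89, 0.92 and 1.06 TPM in exposed dishes. The means were 0.755 ± 0.0705 and 0.94 ± 0.0812 TPM (SD, n = 4 each), 24.5% higher after exposure, the largest ratio of the 10 members. Only 1 dish reached 1 TPM, so the gene was below the limit for the test. When every gene above 0 TPM in any dish was tested (25413 genes), its difference on the log2(TPM + 1) scale, which understates the ratio of so low a gene, was 0.14 (limma adjusted p = 0.466). In that fit 5 of 10 members were higher by unadjusted p under 0.05, against 6.82% of genes. No overlap with the exposed dishes on top was seen for 4 of 10, against 4.08%. These shares include many genes below the abundance limit. Among the 12122 genes above it, as 9 of the members are, they were 12.0% and 8.01%.

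Spry1, the remaining Sprouty gene, did not follow the other 2. It had 2.40, 2.80, 3.02 and 2.57 TPM in control dishes and 2.26, 3.39, 3.00 and 2.20 TPM in exposed dishes. The exposed dishes held both the highest and the lowest value of all 8. Its log2 difference was -0.004, with a 95% confidence interval from -0.27 to 0.26 (limma adjusted p = 0.992), an interval wide enough to hold the differences seen for Spry2 and Dusp6. A transcribed locus on the opposite strand at its start, Gm42922, had at most 0.2 TPM. Spry1 lies on chromosome 3 from 37639947 to 37644598 on the forward strand, and Spry2 on chromosome 14 from 105891947 to 105896819 on the reverse strand.

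The promoter of Spry2, on chr14:105896820-105897069 (reverse strand, RefSeq, GRCm38.p6), is shown because it is the Sprouty gene whose groups separated in the test. It runs 5′ to 3′ on the gene's strand up to the base before the start. Capitals mark the reverse complement of TCAATGAA, an octamer read by Capicua, the repressor that ERK inactivates.
Spry2: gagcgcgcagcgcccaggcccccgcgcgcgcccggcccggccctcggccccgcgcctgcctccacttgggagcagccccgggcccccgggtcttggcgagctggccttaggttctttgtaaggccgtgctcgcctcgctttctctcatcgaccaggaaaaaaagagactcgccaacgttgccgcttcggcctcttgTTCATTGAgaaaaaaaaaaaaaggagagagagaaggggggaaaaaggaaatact

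Promoter windows ran from 250 bases before to 50 after a RefSeq start. They were used for 7 of the members (Dusp5, Dusp6, Spry1, Spry2, Spred1, Spred2 and Etv5), in 8 windows, all on the strand of their gene. Windows on chromosome 18, which holds Spry4, were left out, also from the shares of all windows below. The window of Spred1 ends before the GENCODE start of the gene, since the RefSeq start lies 303 bases upstream of it, and 1 of the 2 windows of Etv5 surrounds a start 1351 bases inside the gene. Neither of these matched the start of a GENCODE transcript, and the other 6 windows did. On both strands, CGGAAG was found in 3 of the 8 windows (Dusp6, Spred2 and the upstream window of Spred1) and in 16.9% of all 32851 windows. A CArG box was found in Dusp5 and in 1.63% of all windows. TCAATGAA was found in Spry2 and in 0.749% of all windows. TGAATGAA, the other Capicua octamer searched (1.3% of all windows), the AP-1 site TGANTCA (7.81%) and the cyclic AMP response element TGACGTCA (1.79%) were found in 0 of the 8.

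The Spred genes gave smaller differences. Spred2 had 19.05, 19.94, 18.36 and 18.56 TPM in control dishes and 18.52, 21.89, 21.37 and 21.48 TPM in exposed dishes. Replicates 2, 3 and 4 after exposure lay above all control dishes, and replicate 1 lay below 3 of the 4. The log2 difference was 0.12 (95% confidence interval -0.001 to 0.25, limma adjusted p = 0.326). Spred1 had 15.24, 15.04, 16.15 and 16.28 TPM in control dishes and 16.63, 17.03, 17.02 and 15.75 TPM in exposed dishes. Again 3 of 4 exposed dishes were above every control dish, here without replicate 4, and the log2 difference was 0.08 (95% confidence interval -0.02 to 0.18, limma adjusted p = 0.446). Spred1 lies on chromosome 2 from 117121374 to 117182279 and Spred2 on chromosome 11 from 19924375 to 20024026, both on the forward strand.

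Of the ETS factors, Etv4 had 17.84, 17.50, 19.14 and 17.27 TPM in control dishes and 19.92, 20.49, 18.34 and 20.98 TPM in exposed dishes. Replicate 3 of the exposed dishes was the one that overlapped, below control replicate 3. The log2 difference was 0.14 (standard error 0.05, 95% confidence interval 0.03 to 0.26, limma adjusted p = 0.223). Its unadjusted p was no longer under 0.05 with the replicate number as a block, or without control replicate 2, control replicate 4, exposed replicate 2 or exposed replicate 4. Etv5 was less abundant, with 6.79, 7.74, 7.20 and 7.66 TPM in control dishes and 7.17, 8.56, 8.10 and 8.38 TPM in exposed dishes. Replicate 1 after exposure lay among the controls and the other 3 lay above them, with a log2 difference of 0.12 (95% confidence interval -0.03 to 0.27, limma adjusted p = 0.451). Etv4 lies on chromosome 11 from 101769742 to 101785371 and Etv5 on chromosome 16 from 22381309 to 22439719, both on the reverse strand.

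TPM is corrected for length, so the levels of the genes can be ordered. Over all 8 dishes Dusp6 was the most abundant member, with a mean of 53.13 TPM and no overlap with the next. Dusp5 (20.81 TPM), Spred2 (19.9 TPM), Etv4 (18.93 TPM), Spry2 (17.2 TPM), Spred1 (16.14 TPM) and Dusp4 (14.94 TPM) followed, and each of these overlapped its neighbour in range. Etv5 (7.7 TPM), Spry1 (2.705 TPM) and Spry4 (0.8475 TPM) were each separate from the gene above. Dusp6 thus stood 62.7-fold above Spry4, and the 4 families did not sort by level.

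The members were not equally high in every exposed dish. Opti-ELF-WMF replicate 2 lay above every control dish for all 10 genes, replicates 3 and 4 for 8 each, and replicate 1 for 6. Replicate 1 had the highest TPM of all dishes for Dusp6 and Spry2, and the lowest of the exposed dishes for Dusp4, Spred2 and Etv5, with a tie for Spry4. The median of the 9 tested members relative to the control mean was 0.08, 0.20, 0.12 and 0.14 on the log2 scale in exposed replicates 1 to 4, against 0.00, 0.06, 0.02 and 0.03 for all tested genes. Control dishes lay between -0.03 and 0.04 for the members. Replicate 2, where the members were highest, was also the dish with the lowest mitochondrial share and the highest median of all genes. With mitochondrial genes left out of the total, the log2 differences were 0.15 for Dusp5, 0.13 for Dusp6 and 0.16 for Spry2.

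**Figure D2:**
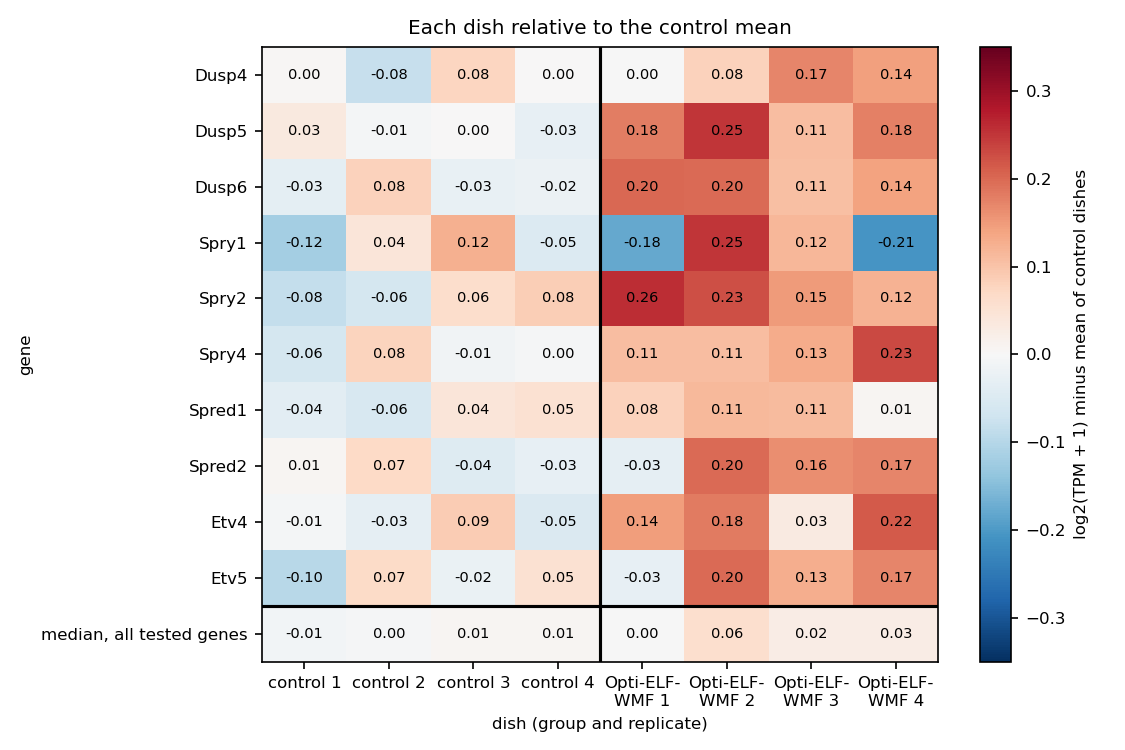
Log2(TPM + 1) of each gene in each of the 8 dishes minus the mean of the 4 control dishes (colour and printed value), with the median of all tested genes in the bottom row. Exposed replicate 2 is above 0 for all 10 genes, whereas replicate 1 is near 0 or below for Dusp4, Spry1, Spred2 and Etv5.

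Exposed replicate 1 also stood apart in another respect. Among the tested genes with the longest exonic sequence (at least 6606 bases, the upper quartile), its median was -0.09 on the log2 scale relative to the other 3 exposed dishes, against 0.01 among the shortest (at most 2446 bases, the lower quartile). This gap of -0.10 compares with -0.04 to 0.05 in the other 7 dishes, each set against the rest of its own group. Among the members that lay above every control dish in this replicate, exonic lengths were 6784 bases for Spred1, 4755 for Spry4, 3132 for Dusp6, 3104 for Etv4, 2473 for Dusp5 and 2087 for Spry2. Among those that did not, they were 4619 bases for Spred2, 4103 for Etv5, 2906 for Spry1 and 2740 for Dusp4. Spred1 was the only member in the upper quartile of length. The part of length in the members' values was not tested. Without this dish, 7 of 9 members were higher by unadjusted p under 0.05 (13.4% of all genes) and 6 had no overlap (13.4% of all genes, since 3 dishes separate more easily than 4). Spred2 then had a log2 difference of 0.18 (limma adjusted p = 0.168), and no member had an adjusted p under 0.05.

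The count of higher members depended little on scaling, while that of all genes did. Of the genes with unadjusted p under 0.05, 76.6% were higher on the deposited values, 63.3% after upper-quartile scaling, 55.2% after median-of-ratios scaling and 50.7% with mitochondrial genes left out of the total. Under median-of-ratios scaling the median change of all genes was 0.01, and 4 of 9 members were still higher by unadjusted p under 0.05 (6.79% of all genes) and 3 still had no overlap (4.58% of all genes). The log2 differences under that scaling were 0.16 for Dusp5, 0.14 for Dusp6, 0.17 for Spry2 and 0.12 for Etv4. With mitochondrial genes left out, 4 of 9 members were higher by unadjusted p under 0.05, against 693 of all 12107 genes. Of these 4, Etv4 was at the edge (limma unadjusted p = 0.0496). The median difference of the members was then 0.097, against 0.125 on the deposited values.

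**Figure D3:**
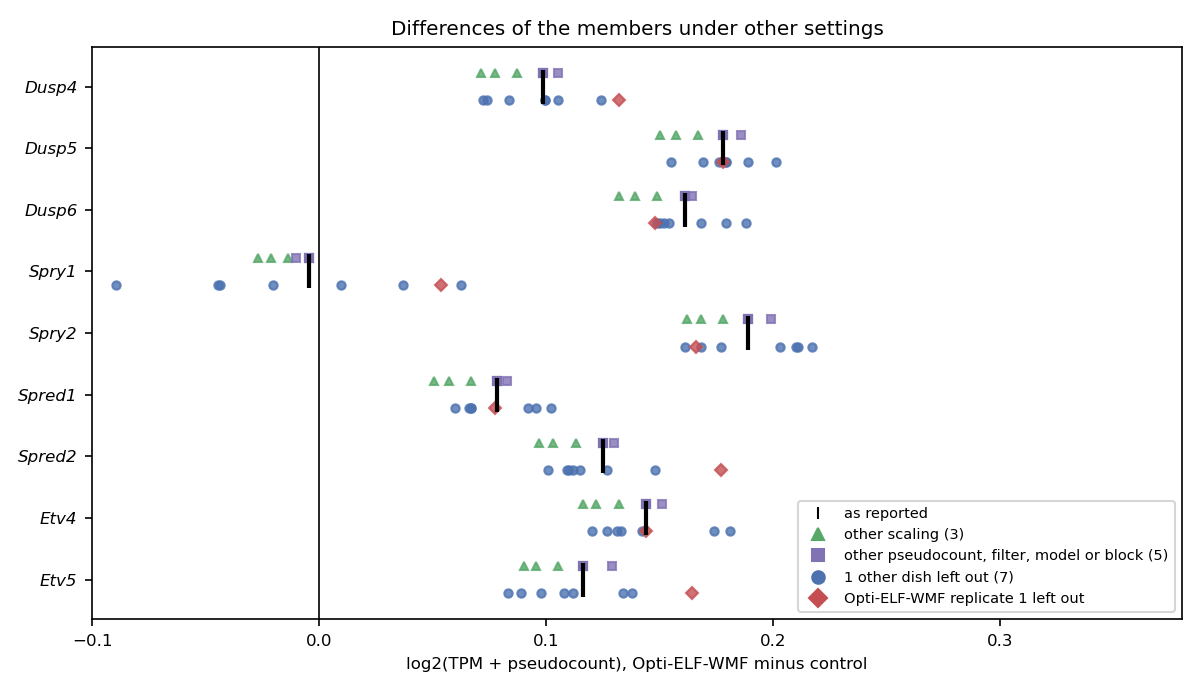
Log2 difference between exposed and control dishes (horizontal axis) for the 9 tested members as reported (bars), under 3 other scalings, under 5 other choices of pseudocount, filter, model or block, and with each dish left out. Points for Dusp5, Dusp6 and Spry2 stay between 0.13 and 0.22, and Spry1 lies on both sides of 0. When exposed replicate 1 is left out, Spry1, Spred2, Etv5 and Dusp4 move more than the other members. Spry1 moves further still without exposed replicate 2 or 4.

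Around the members, the relay that feeds ERK showed small differences. Of 18 listed signal carriers 17 were tested, and 5 were higher by unadjusted p under 0.05, where 12.0% of all genes were. Nras, a Ras gene, had 100.42 to 107.21 TPM in control dishes and 110.83 to 116.48 TPM in exposed dishes (log2 difference 0.13, limma adjusted p = 0.122). Map2k1, which encodes a MEK, went from a mean of 100.5 ± 2.81 to 108.9 ± 4.22 TPM (SD, n = 4 each) with overlapping groups (log2 difference 0.11, limma adjusted p = 0.168). Hras was at 155.81 to 157.93 TPM in control and 161.03 to 165.48 TPM in exposed dishes (log2 difference 0.05, limma adjusted p = 0.288). With median-of-ratios scaling the difference of Hras was 0.03 and no longer had an unadjusted p under 0.05. The other 2 were Grb2 and Ptpn11, named after their values were seen.

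Other kinase genes of the relay did not differ beyond the spread between dishes. Mapk3, an ERK gene, had a log2 difference of 0.03 (95% confidence interval -0.03 to 0.10) and Map2k2, a MEK gene, of 0.07 (-0.03 to 0.18), and both had overlapping groups. Braf spread widely after exposure, at 9.75, 11.61, 16.21 and 16.95 TPM against 11.52 to 13.54 TPM in control dishes, with exposed replicate 1 lowest. Of these 3 genes Mapk3 was the most abundant, at a mean of 136.5 TPM in control dishes, and Braf the least.

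Of 19 listed receptors and ligands 14 were tested. Of these 0 were higher by unadjusted p under 0.05, where 12.0% of all genes were, and 1 was lower, where 3.65% were. Fgfr3, a receptor for fibroblast growth factors, had 10.61, 9.13, 11.55 and 11.15 TPM in control dishes and 7.00, 6.95, 7.11 and 7.48 TPM in exposed dishes. The groups were far apart, with a log2 difference of -0.51 (standard error 0.07, limma adjusted p = 0.122), and it was the largest difference among the genes of the pathway named here. Without control replicate 2, the lowest control dish, its limma adjusted p was 0.0277. Egfr was at 40.59 to 45.46 TPM in control dishes and 35.23 to 46.33 TPM in exposed dishes, where replicate 1 was the low one, and Tgfa, counted here as the mouse gene, at 65.11 to 67.89 and 65.6 to 71.29 TPM. Their log2 differences were 0.02 and 0.04 (limma adjusted p = 0.946 and 0.647), and the direction of Egfr flipped with median-of-ratios scaling and with mitochondrial genes left out of the total.

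Other output genes of ERK lay on the same side as Dusp5, Dusp6 and Spry2. Of 12 listed, 11 were tested, 11 had a positive difference (7720 of all 12122 genes did), and 4 were higher by unadjusted p under 0.05 with no overlap, where 12.0% of all genes were higher by that p and 8.01% had no overlap. Plaur, the urokinase receptor, had 97.86 to 104.21 TPM in control and 112.39 to 116.9 TPM in exposed dishes (log2 difference 0.17, limma adjusted p = 0.122). Fosl1, an AP-1 factor whose transcription follows ERK, had 65.27 to 69.1 and 73.22 to 79.68 TPM (log2 difference 0.20, limma adjusted p = 0.122). Myc, a growth-promoting transcription factor, had 86.12 to 92.14 and 96.39 to 101.08 TPM (log2 difference 0.14, limma adjusted p = 0.122). The fourth was Ccnd1, the cyclin D1 gene, named after its values were seen. The median difference of the list was 0.08, below that of the members.

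Other brakes on the pathway were listed with 17 genes, of which 14 were tested. By unadjusted p under 0.05, 1 of these 14 was higher, where 12.0% of all genes were. It was Errfi1, an inhibitor of the EGF receptor, at 59.56 to 60.71 TPM in control and 62.19 to 63.81 TPM in exposed dishes (log2 difference 0.07, limma adjusted p = 0.226). With median-of-ratios scaling its difference was 0.045. Its unadjusted p was no longer under 0.05 with any other scaling or without control replicate 4. Of the 11 other ETS-type and SRF regulators, all tested, 0 passed in either direction, and their median difference was 0.01. Over all 67 tested genes of these lists the median was 0.04, 10 were higher by unadjusted p under 0.05, where 12.0% of all genes were, and 1 was lower, where 3.65% were.

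**Figure D4:**
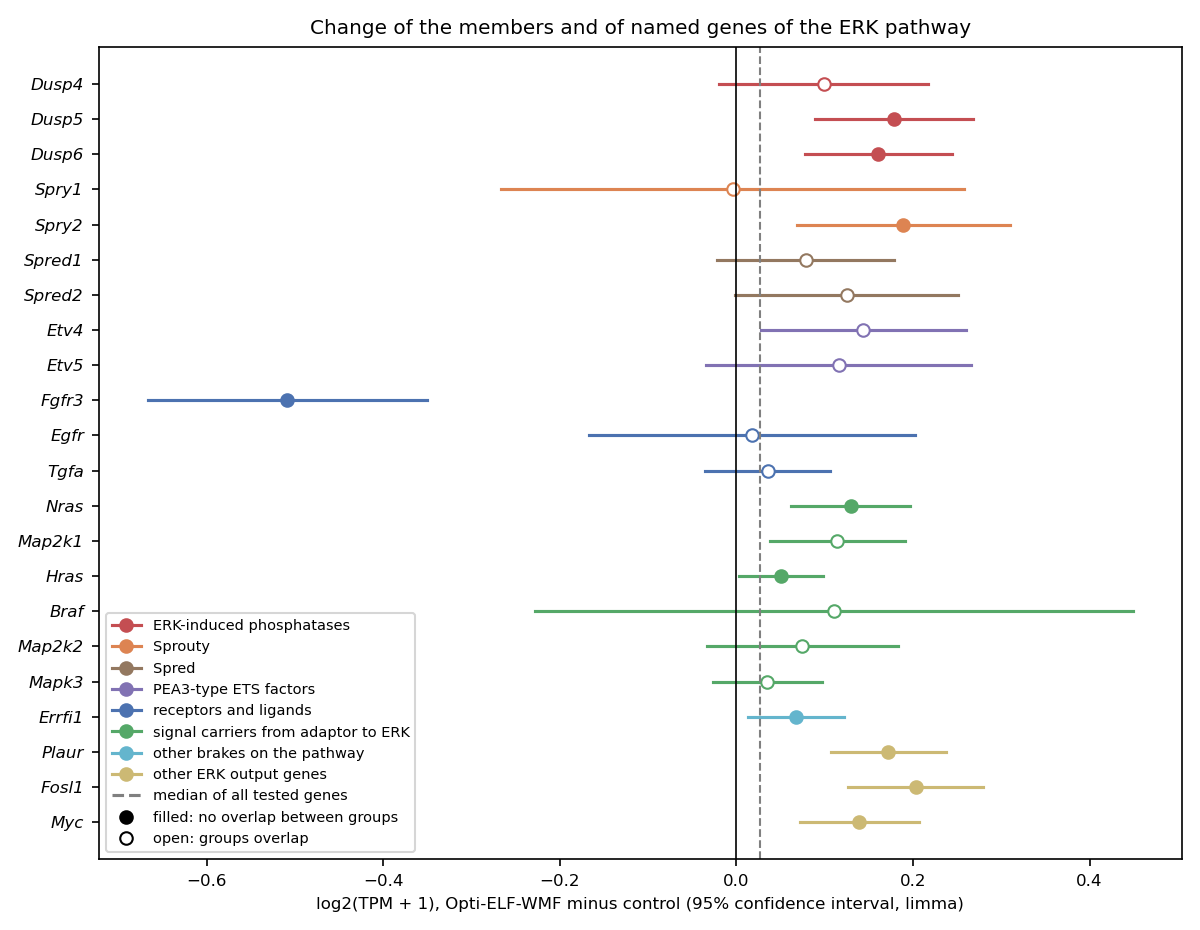
Log2 difference between Opti-ELF-WMF and control dishes with its 95% confidence interval (limma) for the 9 tested members and 13 named genes of the pathway, coloured by role, filled where the groups do not overlap. Dusp5, Dusp6 and Spry2 sit with Plaur, Fosl1 and Myc between 0.14 and 0.20, right of the median of all tested genes (dashed, 0.03), and Fgfr3 sits at -0.51.

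Dusp5 was the tested member with the smallest p-value. The 3 genes with the most similar pattern over the 8 dishes, by the root mean square difference of standardised log2 values, were Akr1a1 (0.181), Fbl (0.212) and Rraga (0.214). Akr1a1 had 497.1 to 511.2 TPM in control dishes and 524.1 to 546.4 TPM in exposed dishes. This is a description of 8 dishes picked from 12122 genes.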

How the data were processed

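AML12 RNA made up 4 control and 4 exposed samples, called dishes here, and stranded poly(A) libraries were read by the authors on an Illumina NovaSeq. The authors deposited TPM per gene, 1 table per dish. The submitters' processing notes name Trimmomatic 0.39, STAR 2.7.4a, RSEM 1.3.3 and the build mm10, and the annotation and settings are not given in the sources used here. TPM keeps no depth, so counting errors are unknown, and a change in abundant genes shifts all others.

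Genes with TPM of at least 1 in at least 4 dishes (12122) were compared on log2(TPM + 1) with limma 3.58.1 (eBayes with trend) in R 4.3.3, adjusted by Benjamini-Hochberg over all of them, and the fit was checked on made-up data. Fold changes on this scale understate those of low genes. Groups with no overlap were counted on TPM. Positions and lengths came from GENCODE M21 (GRCm38), matched by Ensembl identifier, and promoters from RefSeq. Count tests could not be run on TPM.

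The members and lists were chosen with earlier results of these data known. The genes named were the 10 members, up to 3 per pathway list and direction with the smallest p under 0.05, and Braf, Map2k1, Map2k2, Mapk3, Egfr and Tgfa. Some items that the rule also covers are not reported here. Others named are marked as such. Alternatives were the pseudocount, filters, scalings, trend, replicate block and leaving out each dish.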

Additional observations from a re-analysis of the deposited data

Results flagged for a closer look

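Dixon's test for a lone value was applied to the 4 dishes of each group for every member and named pathway gene, and 5 of 46 groups passed its limit, while about 2.3 (1 in 20) would do so by chance. Dusp6 was at 53.06 TPM in control replicate 2, against 48.91 to 49.32 in the other control dishes, and this value narrows the gap to the exposed dishes. Spred2 was at 18.52 TPM in exposed replicate 1, where the other exposed dishes had 21.37 to 21.89. Egfr was at 35.23 TPM in the same dish, against 45.32 to 46.33. Plaur was at 97.86 TPM in control replicate 1, against 103.7 to 104.2, and at 112.39 TPM in exposed replicate 3, where the others had 116.2 to 116.9.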

How the results depend on the processing

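Across 16 alternatives, no member had an adjusted p-value under 0.05, and the 8 tested members other than Spry1 kept a positive difference. The number of members higher by unadjusted p under 0.05 ran from 3 to 7 with 1 dish left out, and that of members with no overlap from 3 to 6, with both highest values without Opti-ELF-WMF replicate 1. Spry1 ran from -0.089 to 0.063 with 1 dish left out and turned positive in 4 of those 8 fits. Egfr became -0.011 with mitochondrial genes left out of the total and -0.0046 after median-of-ratios scaling, and ran from -0.018 to 0.11 with 1 dish left out. Fgfr3 was -0.57 without control replicate 2, with an adjusted p of 0.0277 (limma). The cause of these shifts was not tested. Dishes with the same replicate number in the labels showed no shared pattern of expression. The correlations of same-numbered deviations ran from -0.042 to 0.026, and 0 of 8 dishes correlated best with their own number. Whether same-numbered dishes were handled together is not given, and these correlations cannot settle it. With the replicate number as a block, 3 members were higher by unadjusted p under 0.05, without Etv4. DESeq2 was not run, because TPM is not a count. Unknown depth limits what can be said of Spry4, which lay near 1 TPM.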
